A study of Solanum tuberosum with 12 samples.

Results

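The staygreen protein transcript PGSC0003DMG400010798 and the senescence-specific cysteine protease transcript PGSC0003DMG400010207 are 2 of the 5571 entries in the authors' list of transcripts that differ between high and normal temperature in 8-week potato leaves. They were taken by identifier from that list as markers of leaf senescence. Both were selected on their levels in the 8-week libraries, including the gap between NT replicate 3 and the other NT libraries, so their difference between the temperatures is given as a description, with no test. Neither stands in the list of 1447 transcripts for 3 weeks, which does not say that they were absent or unchanged there.

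The plants were potato (Solanum tuberosum) of cultivar Desiree, multiplied as plantlets on agar medium and then moved to soil. High temperature (HT) meant 35 °C by day and 29 °C by night, and normal temperature (NT) meant 22 °C by day and 16 °C by night, with 12 h of light and 12 h of darkness for both and 8 weeks of growth. RNA came from the upper 5 leaves, and the libraries, which keep the strand, were made from its polyadenylated part. Each group held 3 libraries, and the same 2 temperatures at 3 weeks, with 3 libraries each, were used for the transcripts listed there. The labels give neither leaf stage nor leaf colour, nor whether a library is 1 plant or a pool, so p-values measure the spread between these libraries, which may be technical.

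Leaf senescence is an ordered breakdown in which a leaf takes its chloroplasts apart and sends the nitrogen to growing organs or, in potato, to tubers. Staygreen proteins pull the magnesium out of chlorophyll a, the step that commits the pigment to breakdown, and plants that lose them keep green leaves as they age. Chlorophyll b reductase first turns chlorophyll b towards chlorophyll a. Chlorophyllase is able to remove the phytol tail of chlorophyll, and whether it takes part in leaf senescence was not tested here. Senescence-specific cysteine proteases are papain-type enzymes, and the best known of them, SAG12 of Arabidopsis, is used as a marker because it is nearly silent in young leaves. The potato transcripts are known here by the product names in the files alone.

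Over the 12 libraries the totals ran from 52514661 to 66602938 counts. At 8 weeks HT replicate 1 stood apart from the other HT libraries, with 359 listed transcripts over 4-fold above both and 176 over 4-fold below both. In it the median of 75 cell division markers (cyclins, kinesins, histones) lay 3.65 above the NT mean on the log2 scale, against 1.31 and 1.32 in HT replicates 2 and 3. All 27 listed leaf markers (antenna proteins, the rubisco small subunit and rubisco activase) had counts in all 6 libraries. Tuber storage proteins summed to between 141 and 285 CPM at HT and between 68.9 and 90.1 CPM at NT. CPM is counts scaled to a common library total, and RPKM is counts scaled to the library total and to transcript length.

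Staygreen protein was low in all 3 HT libraries and in 1 of the 3 NT libraries. It had 2.97, 1.10 and 4.19 CPM in HT replicates 1, 2 and 3, against 106, 164 and 4.50 CPM in NT replicates 1, 2 and 3. NT replicates 1 and 2 were high, and NT replicate 3 lay beside the highest HT library. The group means were 2.75 ± 1.55 CPM at HT and 91.6 ± 80.8 CPM at NT (SD, n = 3 each), a log2 change of -5.06 in the fit over all listed transcripts. The SD was 56.4% of the mean at HT and 88.2% at NT.

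On the scales given here the HT and NT libraries of staygreen did not overlap, but the gap rests on 1 library at each temperature. HT replicate 3 held 258 counts and NT replicate 3 held 250 counts. On the scale used here NT replicate 3 was 1.07 times HT replicate 3. The ratio was 1.0051 with library totals alone and 2.37 with DESeq2 size factors over the listed transcripts. Of all 5571 listed transcripts, 93.4% had HT and NT libraries that did not overlap on the scale used here. NT replicate 1 was 23.6 times and NT replicate 2 was 36.5 times the level of NT replicate 3.

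Senescence-specific cysteine protease showed the same split of the libraries with a wider range. It had 2.46, 2.05 and 1.98 CPM in HT replicates 1, 2 and 3, against 1157, 1274 and 8.11 CPM in NT replicates 1, 2 and 3. The HT libraries were alike within 1.24-fold, and the high NT libraries within 1.10-fold. NT replicate 3 was 143 times lower than NT replicate 1 and 157 times lower than NT replicate 2, and 3.29 times the highest HT library (7.44 times with DESeq2 size factors). The group means were 2.16 ± 0.261 CPM at HT and 813 ± 699 CPM at NT (SD, n = 3 each), a log2 change of -8.55.

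In counts the protease had 146, 141 and 122 in the HT libraries, against 58778, 78527 and 451 in the NT libraries, so each value rests on more than 100 counts. It made up 0.112% of NT replicate 1 and 0.123% of NT replicate 2. In the authors' deposited table it was 371 times lower at HT, which was place 12 among the 2185 transcripts listed as lower, and staygreen was 32.9 times lower, at place 144. Without NT replicate 3 the log2 change was -9.13 for the protease and -5.62 for staygreen, and without HT replicate 1 it was -8.65 and -5.11. In a bulk leaf sample, fewer cells with a transcript and less of it per cell cannot be told apart.

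**Figure D1:**
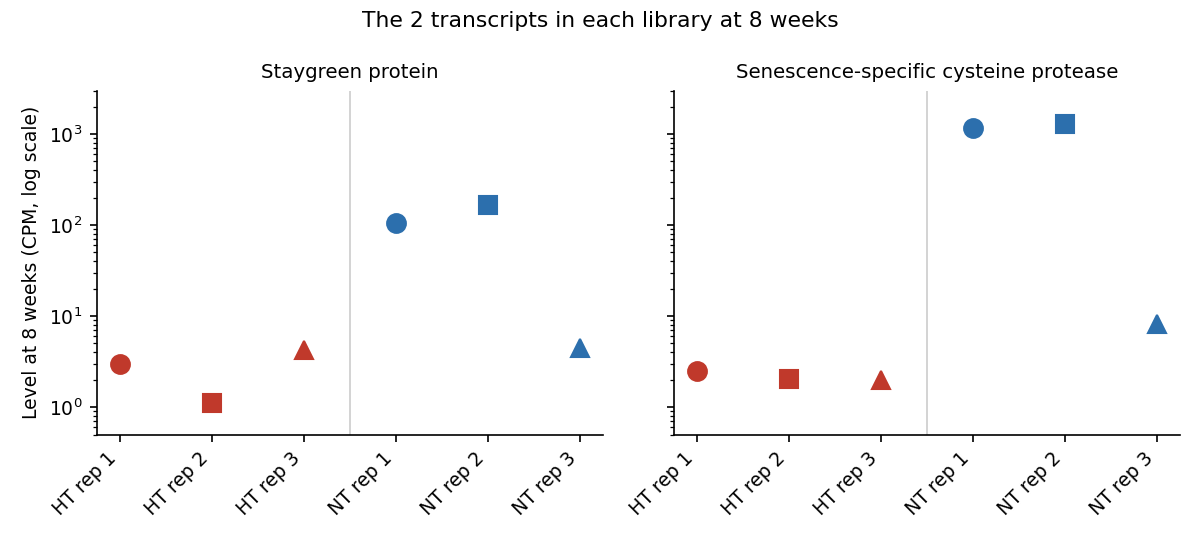
Level of staygreen protein (left) and senescence-specific cysteine protease (right) in each library at 8 weeks, in CPM on a log axis, with HT in red and NT in blue and 1 point per library. NT replicate 3, at 4.50 and 8.11 CPM, lies near the HT libraries and far under NT replicates 1 and 2.

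Per transcript length, which allows levels of different transcripts to be compared, the protease stood above staygreen in every NT library and not in every HT library. The protease had 1.76, 1.46 and 1.42 RPKM in HT replicates 1, 2 and 3, against 774, 853 and 5.43 RPKM in NT replicates 1, 2 and 3. Staygreen had 1.99, 0.739 and 2.80 RPKM in the HT libraries, against 66.5, 103 and 2.82 RPKM in the NT libraries. The ratio of protease to staygreen in RPKM was 0.886, 1.98 and 0.505 in HT replicates 1, 2 and 3, against 11.6, 8.29 and 1.93 in NT replicates 1, 2 and 3. The ratio in NT replicate 3 thus lay within the range of the HT libraries. HT replicate 1, which stood apart in cell division markers, was the highest HT library for the protease and the middle one for staygreen.

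The remaining transcripts of chlorophyll breakdown in the 8-week list were a second staygreen protein, chlorophyll b reductase and chlorophyllase 2. Of these 3, 2 fell and 1 rose at HT (edgeR quasi-likelihood test, adjusted p under 0.05), where 38.0% of the 5176 transcripts tested were called lower, 59.3% higher and 97.3% either way. Under a scaling by DESeq2 size factors, which takes the typical listed transcript as unchanged, the 3 calls had the same directions, where 40.7% of 5170 were called lower and 22.8% higher. The median log2 change of the 3 was -2.02, beside 1.80 for all listed transcripts. The authors selected the listed transcripts on this same contrast, so a call among them is no independent evidence.

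The second staygreen protein, PGSC0003DMG400004252, had 3.00, 2.22 and 3.53 CPM in HT replicates 1, 2 and 3, against 13.5, 20.8 and 2.02 CPM in NT replicates 1, 2 and 3. On the scale used here NT replicate 3 was below all HT libraries, at 0.572 times the highest, so the groups overlapped. With DESeq2 size factors it was above all HT libraries, at 1.26 times the highest. Its log2 change was -2.05 ± 0.75 (edgeR, adjusted p = 0.027), and the call was lost with a replicate block (0.091), without HT replicate 1 or 2 (0.057 and 0.071) without NT replicate 1 or 2 (0.069 and 0.12) and when adjusted over all tests of the authors (0.18). Without NT replicate 3 the adjusted p was 0.0060. Reads of the staygreen copies may be shared, which was not tested.

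Chlorophyll b reductase, PGSC0003DMG400030219, fell, with 43.1, 63.6 and 63.8 CPM at HT in replicates 1, 2 and 3, against 241, 336 and 115 CPM at NT (log2 change -2.02 ± 0.48, adjusted p = 0.0056). NT replicate 3 was the lowest NT library but lay above all HT libraries. Chlorophyllase 2, PGSC0003DMG400019347, rose, with 22.9, 6.52 and 10.7 CPM at HT against 0.630, 0.633 and 1.03 CPM at NT (log2 change 4.13 ± 0.62, adjusted p = 0.0015). For it NT replicate 3 was the highest NT library.

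Chlorophyllase 2 was the one transcript of chlorophyll breakdown listed at 3 weeks as well, where it fell at HT. It had 19.1, 11.1 and 22.7 CPM in the 3-week HT libraries, against 58.4, 67.7 and 54.3 CPM in the 3-week NT libraries (log2 change -1.77 ± 0.31, edgeR, adjusted p = 0.0022, where 37.2% of the 1280 transcripts tested were called lower). The log2 change at 8 weeks minus that at 3 weeks was 5.90 ± 0.75 (interaction over the 12 libraries and 576 transcripts, adjusted p = 0.00027), a test chosen after the values were seen. The transcripts tested were listed at both ages, so each was already selected on its change at each age. For a transcript listed in opposite directions a difference follows from that selection, so this p-value is no independent evidence.

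Beside the cysteine protease, 7 listed transcripts had senescence or dormancy in their product name. Of the 7, 3 rose and 4 fell at HT, where 59.3% of all tested were called higher and 38.0% lower. With DESeq2 size factors 0 rose (0 also at an unadjusted p under 0.05, edgeR) and 4 fell among the 6 with enough counts for that fit. Under that scaling 22.8% of all tested were called higher and 40.7% lower. NT replicate 3 was the lowest NT library for 2 of the 7 and the highest for 3, beside 1721 and 2457 of all 5571 listed. It lay over 4-fold below both others for 0 of the 7. Senescence-associated protein PGSC0003DMG400007880 fell, with 8.59, 24.3 and 24.8 CPM at HT against 136, 126 and 114 CPM at NT (log2 change -2.70 ± 0.49). The 3 NT libraries were close to each other and above all HT libraries. Senescence-associated protein PGSC0003DMG400003573 fell by 6.05 ± 0.98 on the log2 scale, and NT replicate 3, at 2.48 CPM, lay between 1.99 and 3.44 CPM in the other NT libraries.

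The auxin repressed/dormancy associated protein PGSC0003DMG400029732 fell by 1.82 ± 0.41 on the log2 scale. It had 190.3, 254 and 316 CPM in the HT libraries, against 655, 911 and 1114 CPM in NT replicates 1, 2 and 3, and NT replicate 3 was the highest of all. Leaf senescence protein PGSC0003DMG400016405 was also highest in NT replicate 3, at 0.594 CPM, and changed by -2.76 ± 0.94 (edgeR, adjusted p = 0.021). That call was lost without HT replicate 2 (0.061), without NT replicate 3 (0.074) and when adjusted over all tests of the authors (0.14). Of the rises, senescence-associated protein 5 (PGSC0003DMG400045477) had 0.169, 0.770 and 0.699 CPM at HT against 0, 0.0162 and 0 CPM at NT, so NT rests on a single count, and it was the transcript left out with DESeq2 size factors. The other rises were senescence-associated proteins PGSC0003DMG400024608 (log2 change 2.57 ± 0.73) and PGSC0003DMG400025385 (1.66 ± 0.47), and both lost the call with DESeq2 size factors (edgeR, adjusted p = 0.17 and 0.44).

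**Figure D2:**
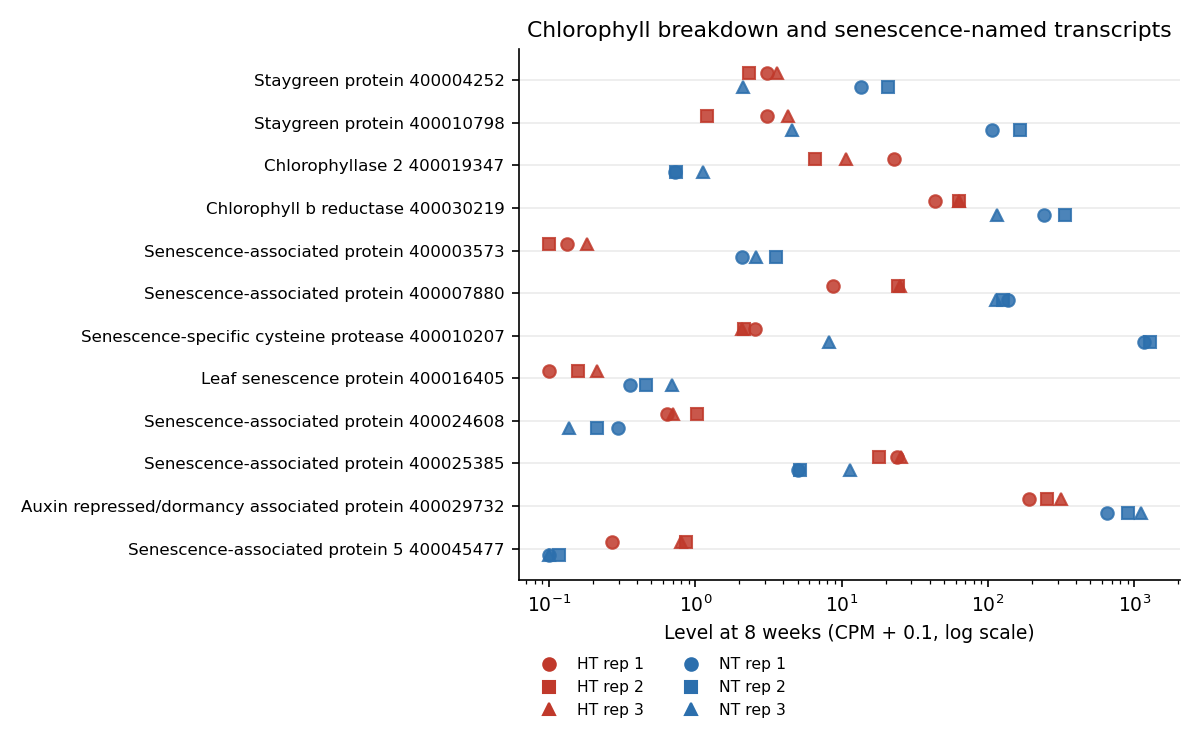
Level of the 4 chlorophyll breakdown transcripts and the 8 senescence-named transcripts at 8 weeks, in CPM + 0.1 on a log axis, with HT (red) above NT (blue) for each transcript, a symbol for each replicate and the last digits of the identifier beside the name. NT replicate 3 (blue triangle) lies apart from the other NT libraries for both staygreen proteins, chlorophyll b reductase and the cysteine protease, all of them below, and above the others for senescence-associated protein PGSC0003DMG400025385, at 11.2 CPM beside 4.90 and 5.09 CPM.

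Cysteine proteases are the family of the senescence-specific enzyme. Of the 12 others listed, with the vacuolar processing legumains among them, 7 rose and 5 fell, and with DESeq2 size factors 4 rose and 5 fell. The shares over all transcripts tested were 59.3% for rises and 38.0% for falls (22.8% and 40.7% under the DESeq2 scaling), so 7 and 5 of 12 were near the background. The summed level of the 12 was 859, 895 and 920.2 CPM in HT replicates 1, 2 and 3, against 3968, 3547 and 2197 CPM in NT replicates 1, 2 and 3. NT replicate 3 was the lowest NT library for 5 of the 12, and lay over 4-fold below both others for 0. The one with the highest CPM at NT was PGSC0003DMG400008004, which fell, with 202, 460 and 368 CPM at HT against 2186, 1941 and 1123 CPM at NT (log2 change -2.35 ± 0.49).

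A cathepsin B-like cysteine proteinase, PGSC0003DMG400010362, fell by 2.18 ± 0.44 on the log2 scale, and NT replicate 3, at 1024 CPM, was again the lowest NT library, beside 1728 and 1498 CPM. Cysteine protease PGSC0003DMG400010215 fell by 4.71 ± 0.80, and in it NT replicate 3, at 32.0 CPM, was the highest NT library, beside 10.3 and 22.8 CPM. Cysteine proteinase 3, PGSC0003DMG400027888, rose, with 408, 30.7 and 185 CPM at HT against 0.787, 0.665 and 0.882 CPM at NT. Its highest HT library was 13.3 times its lowest, and its log2 change was 8.06 ± 1.02. Its NT libraries were all under 1 CPM, in replicate 3 as in the others.

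Cysteine protease inhibitors rose: 3 of 4 listed at 8 weeks were called higher, where 59.3% of all tested were, and the fourth had too few counts for the test. At 3 weeks 5 were listed and 4 were called lower, where 37.2% of all tested were. Multicystatin PGSC0003DMG400005950, which blocks papain-type enzymes, had 181, 13.2 and 49.8 CPM at HT against 0.531, 0.698 and 0.810 CPM at NT (log2 change 6.90 ± 1.02). It was highest in HT replicate 1, as was cysteine proteinase 3. At 3 weeks it fell, with 2.73, 4.81 and 9.94 CPM at HT against 75.3, 50.7 and 68.0 CPM at NT (log2 change -3.47 ± 0.50, edgeR, adjusted p = 0.0013). Its change at 3 weeks was chosen after the values were seen. The protease and inhibitor families hold similar genes that may share reads.

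**Figure D3:**
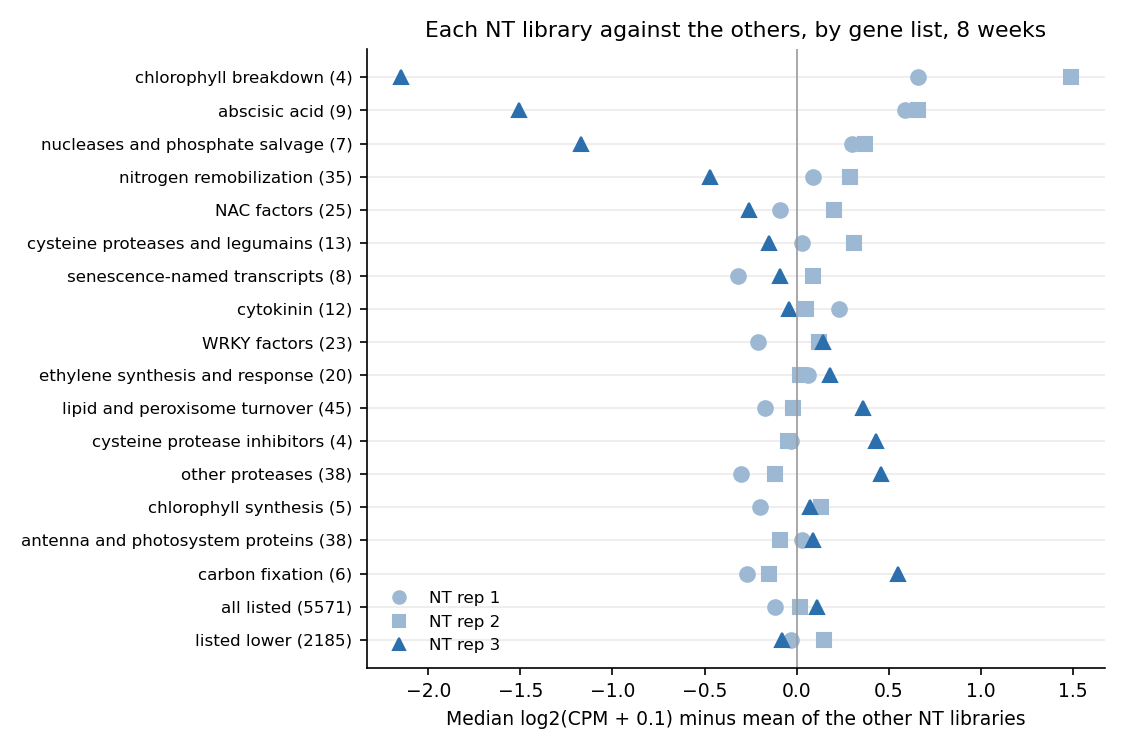
Median over the transcripts of each list of log2(CPM + 0.1) in 1 NT library minus the mean of the other NT libraries at 8 weeks, with the number of listed transcripts in brackets. NT replicate 3 (dark triangles) lies at -2.15 for chlorophyll breakdown (-1.30 without PGSC0003DMG400010798, which was selected for its low level there) and -1.51 for abscisic acid, and at 0.11 for all listed transcripts.

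Each NT library was set against the mean of the other NT libraries for every list. NT replicate 3 lay at a median of -2.15 on the log2 scale for the 4 transcripts of chlorophyll breakdown, and of -1.30 for the 3 without PGSC0003DMG400010798, beside 0.11 for all listed transcripts and -0.08 for those listed as lower at HT. The list for abscisic acid, a hormone that promotes leaf ageing, had a median of -1.51 in NT replicate 3, and 7 of its 9 transcripts were lowest in it among the NT libraries, where 45.2% of all transcripts listed as lower were. All 9 fell at HT, where 38.0% of all tested were called lower (40.7% with DESeq2 size factors, under which the 9 fell too). Abscisic acid receptor PYL4 PGSC0003DMG400027118 had 0.202, 0.479 and 0.114 CPM at HT against 7.08, 12.5 and 2.63 CPM at NT. Of the 9, 2 were not lowest in NT replicate 3. Another PYL4, PGSC0003DMG400011033, had 47.6 CPM there, between 46.7 and 49.2 CPM. 9-cis-epoxycarotenoid dioxygenase PGSC0003DMG400004311, the enzyme that commits carotenoids to the hormone, had 17.0 CPM there, between 11.5 and 19.5 CPM. Most of the 9 are named PYL4, copies that may share reads, so they are not 9 separate observations. ABA 8'-hydroxylase CYP707A1 PGSC0003DMG400001960, of the breakdown of the hormone, was also lowest in NT replicate 3, at 2.68 CPM beside 4.13 and 9.35 CPM. Levels of the hormone were not measured here. Other lists lay above the 0.11 of all listed transcripts in NT replicate 3. The median was 0.46 for 38 other proteases, 0.36 for 45 transcripts of lipid and peroxisome turnover and 0.43 for 4 cysteine protease inhibitors. NT replicate 3 was the highest NT library for 23 of the 38 and 26 of the 45, and the lowest for 7 and 12. At HT 33 of the 38 rose and 4 fell (16 and 4 with DESeq2 size factors). The shares over all tested were 59.3% and 38.0% (22.8% and 40.7%).

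Nitrogen export transcripts had a median of -0.47 in NT replicate 3 over 35 listed. It was 0.11 for all listed transcripts and -0.08 for those listed as lower at HT. Of the 35, 12 rose and 21 fell at HT, where 59.3% of all tested were called higher and 38.0% lower. With DESeq2 size factors 5 rose and 22 fell, where the shares were 22.8% and 40.7%. Amino acid transporter PGSC0003DMG400004961 fell, with 24.4, 15.6 and 27.2 CPM at HT against 250.0, 323 and 35.7 CPM at NT. Amino acid transporter PGSC0003DMG400020266 fell as well, with 5.04, 7.15 and 10.8 CPM at HT against 92.5, 101 and 94.1 CPM at NT, and its NT libraries were alike. Of the rises, glutamine synthetase PGSC0003DMG400023620 had 28.2, 8.19 and 10.7 CPM at HT against 1.02, 0.892 and 1.85 CPM at NT. Amino acid transporter PGSC0003DMG400023205 had 4.96, 0.465 and 0.699 CPM at HT against 0.0787, 0.0325 and 0.0900 CPM at NT. The 7 nucleases and phosphate salvage enzymes had a median of -1.17 in NT replicate 3, and 3 rose and 3 fell at HT (3 and 4 with DESeq2 size factors). Among them the log2 change was 6.95 ± 0.90 for ribonuclease t2 PGSC0003DMG400027453 and -4.18 ± 0.75 for purple acid phosphatase 1 PGSC0003DMG400029500.

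Transcription factors of the NAC and WRKY families, which hold senescence regulators, went both ways in NT replicate 3. The median was -0.26 for 25 NAC factors, 2 of them at least 2-fold below and 2 at least 2-fold above the mean of the other NT libraries, and 0.14 for 23 WRKY factors, 3 of them below and 2 above. NAC domain protein PGSC0003DMG400001223 had 0.0675, 0.0436 and 0.0812 CPM at HT against 6.06, 8.83 and 8.15 CPM at NT, and its NT libraries were alike. NAC domain protein PGSC0003DMG400019092 had 0.405, 0.363 and 0.601 CPM at HT against 16.9, 22.1 and 8.96 CPM at NT, with NT replicate 3 the lowest. Of the NAC rises, PGSC0003DMG400021577 had 3.00, 0.523 and 1.07 CPM at HT against 0, 0 and 0.0360 CPM at NT. PGSC0003DMG400004740 had 0.962, 0.349 and 0.780 CPM at HT against 0, 0 and 0.108 CPM at NT. Both rest on few counts at NT. A WRKY factor chosen after its values were seen, PGSC0003DMG400015104, had 0.692, 1.89 and 0.796 CPM at HT against 9.82, 17.5 and 1.28 CPM at NT, with NT replicate 3 the lowest. The WRKY rises at HT were PGSC0003DMG400029779 (log2 change 2.45 ± 0.79) and PGSC0003DMG400015076 (1.75 ± 0.41).

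At HT 5 NAC factors rose and 16 fell, and 2 WRKY factors rose and 20 fell, where 59.3% of all tested were called higher and 38.0% lower. With DESeq2 size factors these counts were 3 and 19 for NAC and 0 and 21 for WRKY, and when adjusted over all tests of the authors 3 and 10 for NAC and 1 and 8 for WRKY. At an adjusted p under 0.01 WRKY had 1 and 8 as well. The ethylene list had a median of 0.18 in NT replicate 3, which was the lowest NT library for 9 of its 20 transcripts and the highest for 10, and 4 rose and 12 fell at HT (1 and 15 with DESeq2 size factors, 2 and 7 over all tests of the authors). Its 1-aminocyclopropane-1-carboxylate oxidase PGSC0003DMG400009720, which makes ethylene, had 0.0337, 0 and 0.0650 CPM at HT against 19.8, 15.9 and 1.80 CPM at NT, with NT replicate 3 the lowest. Ethylene-responsive proteinase inhibitor 1 PGSC0003DMG400003056 had 2.80, 8.69 and 15.1 CPM at HT against 122, 107 and 198 CPM at NT, with NT replicate 3 the highest. Another 1-aminocyclopropane-1-carboxylate oxidase, PGSC0003DMG402017236, rose at HT (log2 change 2.97 ± 0.77), as did ethylene-responsive transcription factor PGSC0003DMG400002350 (2.86 ± 0.66).

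Transcripts of the photosynthetic apparatus were set beside all listed transcripts, whose median in NT replicate 3 was 0.11 (0.21 for those listed as higher at HT). The median was 0.09 for 38 antenna and photosystem proteins and 0.07 for 5 transcripts of chlorophyll synthesis, both under these values. For 6 transcripts of carbon fixation it was 0.55, above them. At HT 37 of the 38 rose and none fell, and all 5 and all 6 rose, where 59.3% of all tested were called higher. NT replicate 3 was the highest NT library for 21 of the 38 and 2 of the 5, and the lowest for 6 of the 38 and 2 of the 5. For carbon fixation it was the highest NT library for 4 of the 6 and the lowest for 0. Among all 3386 transcripts listed as higher at HT it was the highest for 1649 and the lowest for 733. With DESeq2 size factors the rises were 13, 2 and 2, where 22.8% of all tested were called higher. Over all tests of the authors 23 of the antenna and photosystem proteins rose. Summed antenna and photosystem levels were 51161, 18678 and 24435 CPM in HT replicates 1, 2 and 3, against 7191, 6801 and 7401 CPM in NT replicates 1, 2 and 3. Summed carbon fixation levels were 19135, 11517 and 12346 CPM in HT replicates 1, 2 and 3, against 3066, 2828 and 3511 CPM in NT replicates 1, 2 and 3. NT replicate 3 was the highest NT library in both sums. The same held for the sum of all transcripts listed as higher at HT, with 26090, 25442 and 29528 CPM in NT replicates 1, 2 and 3.

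Transcripts for which NT replicate 3 stood more than 4-fold under NT replicates 1 and 2 alike numbered 126 of the 5571 listed transcripts (2.26%), and those for which it stood more than 16-fold under both numbered 23 (0.413%), staygreen and the cysteine protease included. All 126 were listed as lower at HT. The list was selected on HT against NT, and the 3386 transcripts listed as higher have their lower levels at NT. A fall within NT is harder to see for them, so this direction is tied to the selection. With a pseudocount of 1 in place of 0.1 the first count was 70, and among transcripts with a group mean of at least 10 CPM it was 66. NT replicate 3 lay over 4-fold above both for 18. The same counts were 13 below and 5 above for NT replicate 1, and 5 below and 36 above for NT replicate 2. By distance to both other NT libraries the cysteine protease was first and staygreen was at place 15. Both were selected with this gap known, so their places describe the selection and are no support for it.

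**Figure D4:**
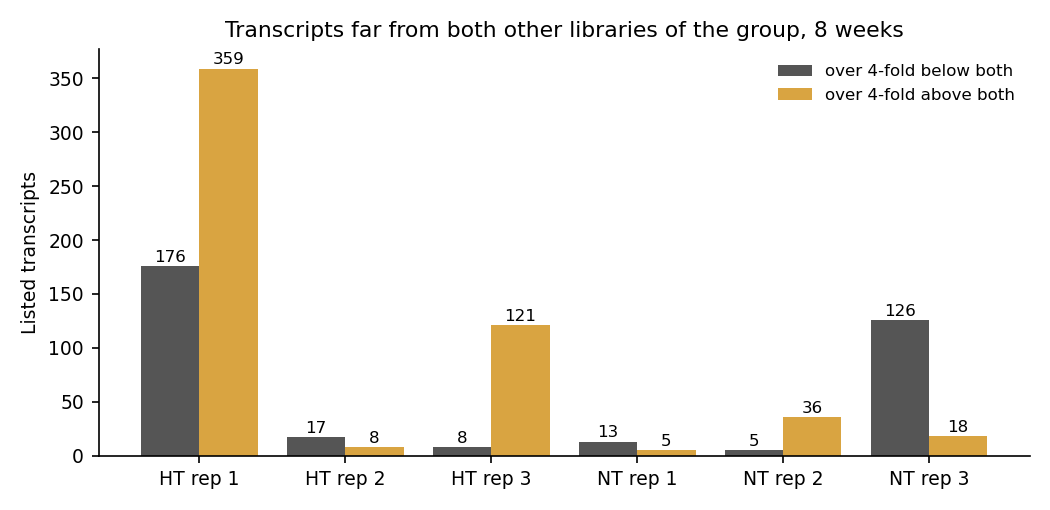
Number of listed transcripts at 8 weeks for which a library lay over 4-fold below (grey) or above (yellow) both other libraries of its group. NT replicate 3 had 126 below and 18 above, and HT replicate 1 had 176 and 359.

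Of the 126 transcripts, 62 were no higher in NT replicate 3 than in the highest HT library. Among the 2185 transcripts listed as lower, NT replicate 3 was nearer to the HT mean than to the mean of the other NT libraries on the log2 scale for 319 (14.6%). The same held for 82 in NT replicate 1 (3.75%) and 28 in NT replicate 2 (1.28%), a measure chosen after the values were seen. For the remaining transcripts listed as lower, NT replicate 3 was nearer to the other NT libraries. What sets NT replicate 3 apart, leaf stage included, was not tested, and no label records it.

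The transcripts most like each marker over the 6 libraries were found by Pearson's r of log2(CPM + 0.1) among 4592 listed transcripts with a group mean of at least 1 CPM, as a description, since all points share the same libraries. The markers had r = 0.976 with each other. For the cysteine protease 134 transcripts had r over 0.95 (2.92%), and for staygreen 91 did (1.98%). Leaving each marker out of the other's count, 78 were shared, which is 58.6% of the 133 like the protease and 86.7% of the 90 like staygreen. The second staygreen protein had r = 0.964 with the first and 0.937 with the protease, and chlorophyll b reductase had 0.925 and 0.954.

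The 6 named transcripts nearest to the protease were a branched-chain-amino-acid aminotransferase, 4 glycosyltransferases and cinnamoyl-CoA reductase, with r from 0.995 to 0.998. Branched-chain aminotransferases take the amino group from leucine, isoleucine and valine, and PGSC0003DMG401011540 had 0.0337, 0.0436 and 0.0162 CPM at HT against 4.09, 5.13 and 0.126 CPM at NT. Flavonoid glycosyltransferase UGT94C2 (PGSC0003DMG400017250), which by its name adds sugar to flavonoids, had 0.101, 0.276 and 0.195 CPM at HT against 99.2, 131 and 1.08 CPM at NT. The other glycosyltransferases were PGSC0003DMG400038305, PGSC0003DMG400017249 and PGSC0003DMG400017191. Cinnamoyl-CoA reductase, of the lignin pathway, had 31.0 and 38.5 CPM in NT replicates 1 and 2 and 2.41 CPM in NT replicate 3.

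The 6 named transcripts nearest to staygreen were the amino acid transporter PGSC0003DMG400004961 (r = 0.997), Sn-1 protein, the glycosyltransferase PGSC0003DMG400017249, beta-carotene hydroxylase, a sensor histidine kinase and the ATP-binding subunit of a Clp protease, with r down to 0.985. The Clp protease, a protein-degrading machine of the chloroplast, is PGSC0003DMG400021039, with 16.1, 14.8 and 21.5 CPM at HT against 116, 125 and 31.0 CPM at NT. Beta-carotene hydroxylase, of carotenoid metabolism, had 0.354, 0 and 0.325 CPM at HT against 5.25, 5.50 and 0.306 CPM at NT. All 6 had their lowest NT level in replicate 3, which follows from choosing them by likeness to staygreen.

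**Figure D5:**
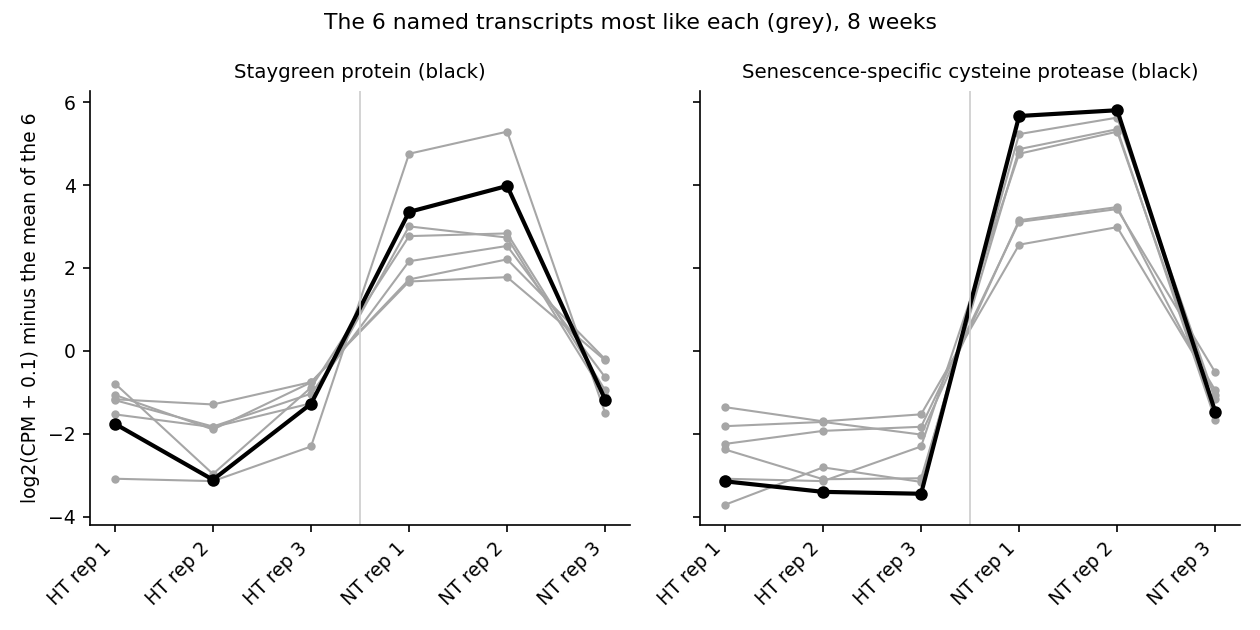
log2(CPM + 0.1) minus its mean over the 6 libraries at 8 weeks for staygreen protein (left) and senescence-specific cysteine protease (right) in black, with the 6 named transcripts of highest r in grey. All lines are high in NT replicates 1 and 2 and low in the HT libraries and NT replicate 3, a shape that the choice by r brings with it.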

How the data were processed

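Every fit started from raw read counts per listed transcript, which the authors deposited for each library. What aligned and counted the reads, and on which build, was not given in the sources used here. A further table, which repeats the transcripts listed at both ages, was not used. Both deposited tables are selections, and no absolute log2 fold change in them is under 1.5. The authors' signed fold change, a score in the deposited tables, was copied without its sign, and the ratio of their Bonferroni value to their deposited p-value gave 34088 tests at 8 weeks and 33777 at 3 weeks. Their group means of counts, a signal in the deposited tables, were not used. Library totals were solved from the counts, transcript lengths and the deposited maximum group mean, which is an RPKM value. A constant shift of 0.095 on the log2 scale at 8 weeks (0.402 at 3 weeks) brought these totals onto the authors' fold changes. RPKM values given here use totals without the shift.

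HT was compared with NT by edgeR 4.0.16 (quasi-likelihood test, filterByExpr, Benjamini-Hochberg over all listed transcripts tested, threshold 0.05) in R 4.3.3, on the 6 libraries of an age. Errors of log2 changes are approximate standard errors, the change over the root of F. The alternatives tried were other scalings, no filter on low counts, the Wald test of DESeq2 1.42.0, an adjusted p under 0.01, adjustment over all tests of the authors, the replicate number as a block, and each library left out in turn. For the description of NT replicate 3 and of likeness they were a pseudocount of 1, DESeq2 size factors and a minimum of 10 CPM. The fit was tested on simulated data. Shared replicate numbers were not taken as pairs, though correlations of deviations cannot show that the samples were unpaired.

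The 2 transcripts and the gene lists, which are patterns on product names, were chosen with earlier results of these data known, and name matches of another kind (inhibitors among proteases, for example) were then removed. Named are both transcripts, all chlorophyll breakdown and senescence-named transcripts, and the 6 with product names most like each. From some of the other lists, transcripts were named out of the up to 2 called higher and 2 called lower with the largest changes. Further cysteine proteases and abscisic acid transcripts, 1 WRKY factor and the multicystatins at 3 weeks were chosen after their values were seen. The reference gene table held 0 of the identifiers, and no position or sequence is given. Python 3.11.15 with pandas 2.3.3 and SciPy 1.17.1 handled the tables.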

Additional observations from a re-analysis of the deposited data

Results flagged for a closer look

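Chlorophyllase 2 changed in opposite directions at the 2 ages: its log2 change of HT over NT was 4.13 at 8 weeks and -1.77 at 3 weeks. The difference was 5.90 ± 0.75 (edgeR interaction, adjusted p = 0.00027). Every HT library lay above every NT library at 8 weeks and below at 3 weeks. The difference was between 5.26 and 6.22 when each library was left out in turn. Multicystatins, copies that may share reads, fell at 3 weeks, and the 2 tested at 8 weeks rose there. The log2 change at 8 weeks minus that at 3 weeks was 10.37 ± 1.26 for PGSC0003DMG400005950 and 10.42 ± 1.24 for PGSC0003DMG400026899 (edgeR interaction, adjusted p = 0.00027 each), and 7.48 ± 1.87 for PGSC0003DMG400005921 (adjusted p = 0.0073), which had too few counts for the test at 8 weeks alone. With each library left out they ran from 9.0 to 11, 9.12 to 11.04 and 5.94 to 9.71, in that order. These tests were chosen after the values were seen. They cover only transcripts that the authors listed at both ages. A difference between the ages follows from that selection where the listed directions are opposite, so these p-values are no independent evidence. Groups of 3 libraries were not tested for outliers, so NT replicate 3 is described in the report by its values alone.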

How the results depend on the processing

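The log2 change of the cysteine protease stayed between -9.90 (DESeq2 size factors) and -7.55 (replicate block), and between -9.13 and -8.07 with a library left out. That of staygreen stayed between -6.43 and -4.33. Of 5035 calls at 8 weeks (60.9% higher), DESeq2 size factors gave 3281 (35.9% higher), adjustment over all tests of the authors 2958, the replicate block 4811 and left-out libraries 4459 to 5006. At 3 weeks these settings gave 662 (23.4% higher), 283, 1212 and 1128 to 1327, beside 1248 (61.9% higher). DESeq2 size factors moved the median log2 change of all transcripts by -1.33 at 8 weeks, to 0.47, and by -1.23 at 3 weeks, to 0.43. TMM moved it by -0.07 and -0.53, and totals without the shift by 0.09 and 0.41. Same-numbered libraries had deviations correlated between -0.09 and 0.10, so the numbers were not taken as pairs. The 8 senescence-named calls were 5 with DESeq2 size factors, 5 over all tests of the authors and 5 at an adjusted p under 0.01. With DESeq2 size factors cysteine proteases turned to mostly lower (10 calls, 4 higher and 6 lower), as did lipid and peroxisome turnover (30 calls, 12 higher and 18 lower, beside 26 and 18). Left-out libraries gave 3 to 4 calls in chlorophyll breakdown, 7 to 8 in the senescence-named list and 11 to 13 among cysteine proteases. Transcripts over 4-fold below in NT replicate 3 numbered 70 with a pseudocount of 1 and 66 above a mean of 10 CPM. Transcripts like staygreen numbered 159 with DESeq2 size factors, and above 10 CPM 59 were like staygreen and 86 like the protease. Fewer transcripts were compared above 10 CPM, and for the other settings the cause was not tested. Depth does not limit either marker, each with at least 76 counts in every library.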
